A study of Mus musculus with 12 samples.

Results

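The genes described here are the histone genes of the mouse count table, meaning every gene whose symbol begins with Hist1h to Hist4h, H1f, H2af or H3f3. They numbered 65 of 7318 listed genes. Of these, 55 belong by their symbols to the Hist clusters, the arrays of replication-dependent histone genes, and 10 are variant histone genes (H1f0, H1fx, H2afj, H2afv, H2afx, H2afy, H2afy2, H2afz, H3f3a and H3f3b). The Hist-cluster genes comprised 5 for the linker histone H1, 13 for H2A, 15 for H2B, 10 for H3 and 12 for H4. In the GENCODE annotation 46 of them lie on chromosome 13, 5 on chromosome 3, 3 on chromosome 11 and 1 on chromosome 6. All but Hist3h2bb-ps, which is annotated as a pseudogene, are protein-coding.

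RNA and ribosome footprints were counted in cells of mammary glands from female FVB/N mice aged 4 weeks that carried MMTV-Wnt1 and MMTV-iFgfr1. MMTV is a promoter active in mammary epithelium, and iFgfr1 encodes an FGF receptor that AP20187, a dimerizing compound, switches on. AP20187 or vehicle had been given by intraperitoneal injection 6 h before the glands were taken, and there were 3 RNA and 3 footprint libraries for each treatment, and the labels describe footprints and RNA as prepared from a cell pellet, so same-numbered libraries of a treatment are called a pellet here. Every mouse carried both transgenes, the vehicle group included, and since no mice without the receptor received AP20187, effects of the compound and of the receptor cannot be told apart. Cells were released with collagenase in the presence of cycloheximide, which halts elongating ribosomes, and epithelium was enriched by brief spins with no sort given in the labels. The labels do not say how many mice went into a library, so part of the spread on which the p-values rest may be technical.

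Replication-dependent histone genes are transcribed as DNA is copied, and they supply the bulk histones that package it. Their mRNAs are not polyadenylated: the transcript is cut just after a short stem-loop, and the stem-loop-binding protein SLBP stands in for the tail. Variant histone genes give ordinary polyadenylated mRNAs and are made outside S phase as well, and some Hist-cluster genes can also give polyadenylated transcripts in cells that have left the cycle. The RNA libraries were made with a kit that selects poly(A) RNA, while the footprint libraries were made from nuclease-protected fragments with no poly(A) selection in the labels, so the comparison of both kinds of transcript across the assays was the main question for these genes.

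RNA libraries held between 94513818 and 251874393 counts over the listed genes and footprint libraries between 1772969 and 11018709. Levels are given as CPM, counts scaled to the size of a standard library, after scaling of the library sizes within each assay, and per-library values are always listed in the order of libraries 1, 2 and 3. A limit of 3 counts, which covers counting error only, corresponded to 0.0119 to 0.0317 CPM in RNA and to 0.272 to 1.69 CPM in footprints. Of the markers of luminal epithelium, 7 of 9 were listed, and their summed RNA ranged from 6517 to 8748 CPM with AP20187 and from 3867 to 4803 CPM with vehicle. Markers of basal epithelium, fibroblasts, endothelium, adipocytes and Schwann cells were also detected, as the absence of a sort allows, and were lower with AP20187: fibroblast markers (4 of 6 listed) summed to 944 to 1421 CPM with AP20187 and to 2751 to 5141 CPM with vehicle. RNA of the transgenes' genes was higher with AP20187, Wnt1 at 184, 313 and 165 CPM against 30.6, 45.0 and 11.2 CPM with vehicle, and Fgfr1 at 756, 1101 and 575 CPM against 339.9, 366 and 268 CPM with vehicle.

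The stem-loop that ends a replication-dependent histone mRNA is shown for 8 genes because the differences between the assays are described by how these transcripts end. The sequences come from GENCODE vM21 transcripts (genome build GRCm38). They run 5′ to 3′ on the transcript, the capitals mark the 16 bases of the stem-loop, whose coordinates are given, and the lower-case letters are the 5 bases on either side.
Hist1h1c (chr13:23739512-23739527, plus strand): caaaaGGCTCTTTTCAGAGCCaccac
Hist1h1d (chr13:23555787-23555802, plus strand): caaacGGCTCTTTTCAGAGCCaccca
Hist1h2bb (chr13:23747203-23747218, plus strand): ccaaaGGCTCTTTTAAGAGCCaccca
Hist1h4d (chr13:23581950-23581965, plus strand): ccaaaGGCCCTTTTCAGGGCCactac
Hist1h4b (chr13:23757366-23757381, plus strand): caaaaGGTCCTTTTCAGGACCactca
Hist1h4i (chr13:22040966-22040981, minus strand): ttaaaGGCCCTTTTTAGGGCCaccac
Hist4h4 (chr6:136803998-136804013, minus strand): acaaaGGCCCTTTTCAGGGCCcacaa
H2afx (chr9:44335240-44335255, plus strand): acaaaGGCCCTTTTAAGGGCCaccac

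A 16-base match to the histone 3′ stem-loop consensus downstream of the stop codon was found in the annotated transcripts of 38 of the 65 genes, 37 Hist-cluster genes and the variant H2afx. Among all 21901 protein-coding genes of the annotation, 68 (0.310%) had a match anywhere in a transcript on the transcribed strand and 23 (0.105%) on the other. This wider search was not limited to bases past the stop codon, and histone genes are among the 68. The form printed for Hist1h1c and Hist1h1d was shared by 19 of the 38 genes, that of Hist1h4d and Hist4h4 by 6 and that of Hist1h2bb by 5. The loop began between 21 and 54 bases after the stop codon, at a median of 31. For 35 of the 38 genes the RefSeq gene ended within 10 bases of the loop. In 18 of these 35 the GENCODE model nevertheless ran on for at least 100 bases past the loop. The other 18 Hist-cluster genes had no match. Of the 17 protein-coding ones, 9 have a model that stops at the stop codon, so a missing match says only that the letters are not in the model.

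Hist-cluster genes were low in the RNA libraries and abundant in the footprint libraries. Of the 55 genes, 18 averaged under 1 CPM of RNA and 44 under 10 CPM, yet 47 averaged over 100 CPM of footprints. Their median level was 602 CPM in footprints and 2.33 CPM in RNA, against 113 CPM and 106 CPM for the 10 variants and 59.1 CPM and 67.4 CPM for all listed genes. Divided by length, the Hist-cluster genes had a median of 1549.7 footprint CPM per kb of coding sequence and 2.87 RNA CPM per kb of transcript model, and the variants 222 and 52.1. As a share of all listed counts, Hist-cluster genes took 3.29% to 7.38% of each footprint library and 0.0608% to 0.401% of each RNA library. Variants took 0.364% to 0.921% of each footprint library and 0.742% to 1.65% of each RNA library.

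**Figure D1:**
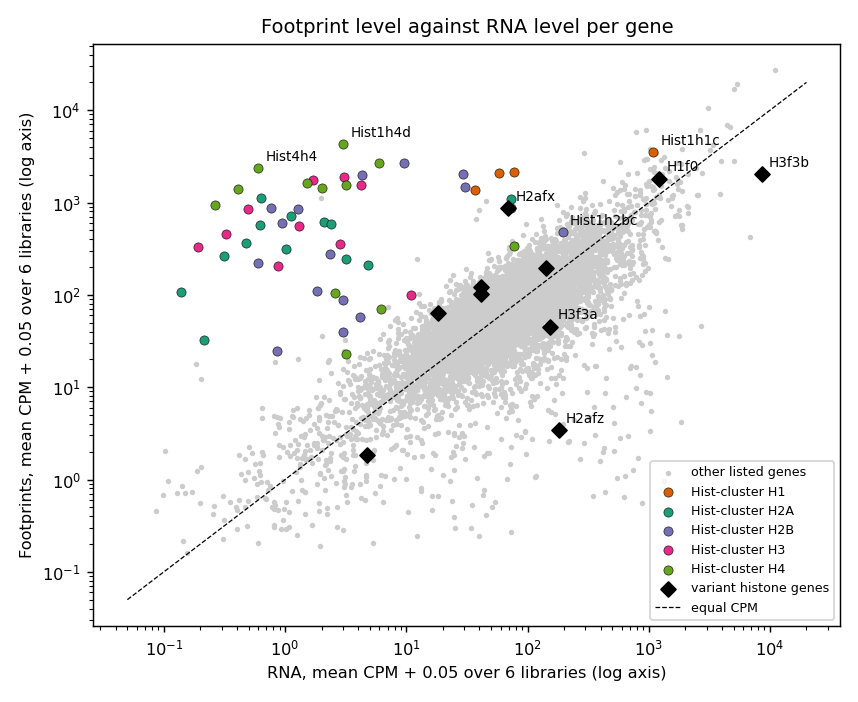
Mean footprint level against mean RNA level of each listed gene, in CPM plus 0.05 over the 6 libraries of each assay, both on log axes; coloured circles are the 55 Hist-cluster genes by core type, black diamonds the 10 variants, grey points the other listed genes, and the dashed line marks equal CPM. Hist-cluster genes lie above the line, most of them with RNA under 10 CPM and footprints over 100 CPM, while H3f3b, H3f3a and H2afz lie below it.

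Set against the typical gene of the table, footprints over RNA were higher for all 55 Hist-cluster genes and for 5 of the 10 variants, and lower for 3 variants (edgeR quasi-likelihood test over all 12 libraries, adjusted p under 0.05). Of all 7315 genes tested, 31% were called higher and 29.8% lower by the same rule. The median log2 difference was 8.53 for Hist-cluster genes (range 1.56 to 12.32), 0.68 for variants and 0.02 for all genes tested. The 10 highest values of the whole table all belonged to Hist-cluster genes, as did 45 of the highest 50. The highest value of a gene that is no histone gene was 8.99. Poly(A) selection, nuclease digestion and the ribosome load of a transcript all differ between the assays, so their parts in these differences cannot be told apart. Leaving out any single pellet left 60 or 61 histone genes called higher and 3 or 4 called lower.

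Among core types, H4 and H3 genes had the highest medians (9.54 and 9.42 on the log2 scale), followed by H2A (8.55), H2B (6.48) and H1 (5.41). Their ranges overlapped widely, for example 2.45 to 12.32 among H4 genes and 4.13 to 11.25 among H2A genes, and no test between core types was made.

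Hist1h4d, an H4 gene (chromosome 13, 23581598 to 23582735, plus strand), had the highest footprint level per kb of coding sequence among the histone genes, 13997 CPM per kb. Its footprints stood at 4774, 3495 and 5035 CPM in the AP20187 libraries, against 4939, 4234 and 3472 CPM in the vehicle libraries. Its RNA stood at 4.70, 2.24 and 5.94 CPM in the AP20187 libraries, against 2.04, 1.32 and 1.46 CPM in the vehicle libraries. Every footprint library was thus far above every RNA library, and the log2 difference was 10.80 ± 0.35 (SE, edgeR adjusted p = 5.78e-11). Hist4h4, the Hist-cluster H4 gene outside the large arrays (chromosome 6, 136801553 to 136804415, minus strand), had the most unique coding sequence among H4 genes. Its footprints stood at 1892, 1329 and 3715 CPM in the AP20187 libraries, against 2627, 2168 and 2307 CPM in the vehicle libraries, and its RNA at 0.630, 0.333 and 0.720 CPM in the AP20187 libraries, against 0.510, 0.362 and 0.748 CPM in the vehicle libraries, a log2 difference of 12.18 ± 0.43 (SE, edgeR adjusted p = 1.14e-10). Hist1h2bg had the most footprints per kb of coding sequence among H2B genes, 7052 CPM per kb, with 1807, 2654 and 2522 CPM in the AP20187 libraries, against 4359, 2494 and 2158 CPM in the vehicle libraries. Its RNA stood at 16.1, 5.24 and 22.0 CPM in the AP20187 libraries, against 4.85, 6.46 and 2.59 CPM in the vehicle libraries, a log2 difference of 8.46 ± 0.45 (SE, edgeR adjusted p = 4.41e-09).

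A few Hist-cluster genes had ordinary RNA levels. Of the 55, 11 averaged over 10 CPM of RNA: Hist1h1c, Hist1h2bc, Hist1h4i, Hist1h1d, Hist1h1b, Hist3h2a, Hist1h1a, Hist1h1e, Hist1h2be, Hist2h2bb and Hist1h3d. Hist1h1c, which encodes a linker histone, was the highest of the Hist-cluster genes per length (694 RNA CPM per kb of transcript model). Its footprints stood at 3888, 2009.7 and 7946 CPM in the AP20187 libraries, against 2479, 1784 and 2953 CPM in the vehicle libraries, only 4.03-fold above the RNA level by the fit. The smallest difference of the class belonged to Hist1h2bc, an H2B gene whose model has 2 exons (chromosome 13, 23684199 to 23692908, plus strand). Its footprints stood at 397, 178 and 1169 CPM in the AP20187 libraries, against 536, 197 and 416 CPM in the vehicle libraries, and its RNA at 281, 120.2 and 436 CPM in the AP20187 libraries, against 125, 124 and 82.7 CPM in the vehicle libraries, a log2 difference of 1.56 ± 0.43 (SE, edgeR adjusted p = 0.00643).

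Values varied with the annotated transcript end, in groups that were formed after the values had been seen and are therefore described without a test. The 17 genes whose model ends within 100 bases of the stem-loop had a median log2 footprint-over-RNA difference of 9.71 (range 3.06 to 12.32). The 20 genes whose GENCODE model runs on past the loop had a median of 7.24 (range 2.01 to 12.18). The 17 protein-coding genes with no loop in their model had a median of 8.53, and the pseudogene stood at 5.10. Among the 37 genes with a loop, the 15 whose model holds a polyadenylation signal (AATAAA, or the common form ATTAAA, on the transcribed strand) after it had a median of 6.03, with a median RNA level of 3.13 CPM. The 22 without one had a median of 9.72 and 1.36 CPM. Both sets spread widely: Hist4h4 holds 4 such signals and was among the highest of all. The letters were sought over the whole model past the loop, 4884 bases in Hist1h1d, so longer models have more room for a match. The part of model length in this difference was not tested.

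**Figure D2:**
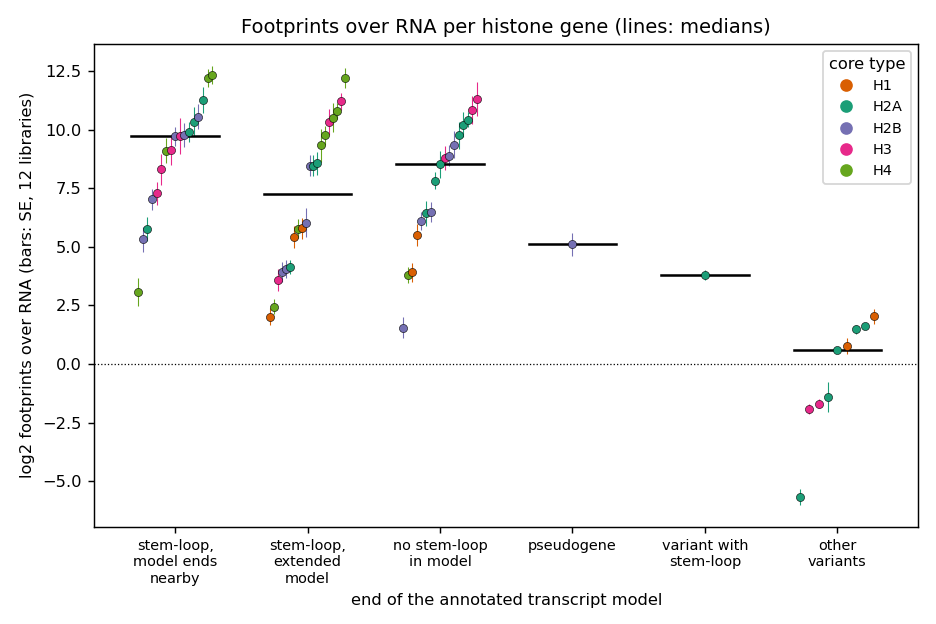
Log2 footprints over RNA of each histone gene, from the fit over 12 libraries with SE bars, grouped by the end of the annotated transcript model and coloured by core type; the horizontal lines are the medians of the groups and the dotted line marks the level of equal footprints and RNA. Groups of Hist-cluster genes sit above the variants, with medians of 9.71, 7.24, 8.53 and 5.10 against 0.60 for the 9 variants without a stem-loop, and H2afx, the variant with one, stands at 3.80.

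The variants differed widely among themselves. H2afx, whose protein marks DNA breaks when phosphorylated, carries the stem-loop printed above and also a longer model with a polyadenylation signal. Its footprints stood at 884, 1074 and 789 CPM in the AP20187 libraries, against 999, 916 and 521 CPM in the vehicle libraries, and its RNA at 86.1, 75.4 and 100.5 CPM in the AP20187 libraries, against 55.5, 62.0 and 37.5 CPM in the vehicle libraries, a log2 difference of 3.80 ± 0.21 (SE, edgeR adjusted p = 6.79e-09), the highest of the variants. H1fx, H2afv, H2afj and H2afy, which encode a linker histone, an H2A.Z form, an H2A form and a macroH2A, were higher in footprints by 2.04, 1.61, 1.48 and 0.60 on the log2 scale. H1f0, the linker histone known from differentiated cells, differed by 0.75 ± 0.34 (SE, edgeR adjusted p = 0.0697) and was not called. With the pellet as a block the H1f0 difference was 0.70 (edgeR adjusted p = 0.00350), and it was also called with DESeq2 (adjusted p = 0.0419) and by edgeR without the AP20187 2 pellet (adjusted p = 0.0171).

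H3f3b, which encodes the replication-independent H3 variant, had the highest RNA level of the histone genes per length, 3404 CPM per kb of transcript model. Its footprints stood at 2231, 1507 and 3159.5 CPM in the AP20187 libraries, against 1719, 1650.3 and 1911 CPM in the vehicle libraries. RNA of H3f3b stood at 11367, 6484 and 13473 CPM in the AP20187 libraries, against 6469, 6878 and 6671 CPM in the vehicle libraries. Footprints were thus below RNA in all 6 pellets, with a log2 difference of -1.93 ± 0.22 (SE, edgeR adjusted p = 6.05e-06). H3f3a, which encodes the same protein, had footprints of 28.7, 54.9 and 21.2 CPM in the AP20187 libraries, against 54.8, 58.9 and 52.4 CPM in the vehicle libraries. Its RNA stood at 129, 137 and 154 CPM in the AP20187 libraries, against 165, 174 and 162 CPM in the vehicle libraries, with a log2 difference of -1.69 ± 0.19 (SE, edgeR adjusted p = 4.79e-06). The largest deficit was that of H2afz, the other H2A.Z gene, whose footprints stood at 2.82, 3.99 and 6.37 CPM in the AP20187 libraries, against 0, 3.82 and 3.40 CPM in the vehicle libraries. A count of 0 in vehicle 1 allows up to 1.61 CPM there. H2afz RNA stood at 142, 159 and 227 CPM in the AP20187 libraries, against 163, 234 and 162 CPM in the vehicle libraries, a log2 difference of -5.66 ± 0.34 (SE, edgeR adjusted p = 1.45e-08). The remaining variant, the macroH2A gene H2afy2, had at most 4.36 CPM of footprints, with 0 counts in vehicle 1 and vehicle 3 (limits 1.61 and 0.749 CPM). Its log2 difference was -1.41 ± 0.64 (SE, edgeR adjusted p = 0.0691) and not called, whereas DESeq2 (adjusted p = 0.0460), limma voom (adjusted p = 0.0483) and edgeR with the replicate number as a block (-1.61, adjusted p = 0.0310) called H2afy2 lower. Without the vehicle 2 pellet, which leaves no vehicle footprint count, edgeR called it too (adjusted p = 0.00331).

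Many of these genes share sequence. When each coding sequence was divided into windows of 30 bases, close to the length of a footprint, a median of 12.9% of the windows of a Hist-cluster gene occurred in no other annotated gene's transcripts (range 0% to 99.5%), and 7 genes had no such window. The share was 63.8% for the median variant, but 0% for H2afz, 0.528% for H3f3a and 29.6% for H3f3b. How reads that fit several genes were counted is not given in the sources used here, so the split between near-identical members is uncertain. For H2afz, H3f3a and H3f3b, 0% of the windows occurred in another of the 65 histone genes. Their shared windows thus lie in other annotated genes, and the part of this sharing in their deficits was not tested. At least 80% of windows were unique in 4 Hist-cluster genes, and their log2 footprint-over-RNA differences were 12.18 for Hist4h4, 9.75 for Hist2h4, 5.50 for Hist1h1a and 3.91 for Hist1h1b. The 3 variants past the same mark, H1f0, H2afv and H2afy, stood at 0.75, 1.61 and 0.60. All 13 Hist-cluster H2A genes overlap an annotated gene on the opposite strand, and 25 of the 65 histone genes overlap another gene on either strand. The strand setting of the counting is not given either.

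With AP20187, RNA of some histone genes was higher. Of the 65 genes 21 rose and 0 fell (edgeR adjusted p under 0.05), where 12.4% of all 7314 genes tested were called higher and 13.9% lower. The 21 were 17 of 55 Hist-cluster genes and 4 of 10 variants. At an unadjusted p under 0.05, 42 were higher and 1 was lower, against 1487 higher and 1503 lower of all 7314 genes tested. After adjustment, 0 lower calls with edgeR compared with 1 each with DESeq2 and limma voom, which was H2afv. Of all 7314 genes tested, DESeq2 called 1269 lower and limma voom 1074. The fitted log2 fold change was positive for all 55 Hist-cluster genes, with a median of 1.55 (range 0.06 to 2.58), against 0.44 for variants, of which 4 were negative, and 0.01 for all genes tested. As these are bulk samples, a larger share of cells that express histone genes and more histone RNA per cell cannot be told apart. Nor can a larger share of transcripts recovered by poly(A) selection. The markers of other cell types moved with treatment as given above. Their part in the rise was not tested. With the replicate number as a block, 2 histone genes were called higher in RNA, where 620 of all 7314 genes tested were.

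The AP20187 libraries were unequal. Summed over the Hist-cluster genes, RNA stood at 3315, 1058 and 4071 CPM in the AP20187 libraries, against 925, 1017 and 629 CPM in the vehicle libraries, so AP20187 2 lay just above the highest vehicle library. The means were 2815 ± 1567 CPM with AP20187 and 857 ± 203 CPM with vehicle (SD, n = 3 each). Against the mean of the vehicle libraries, all 55 genes were above it in AP20187 1 (median log2 difference 1.26), 28 of 55 in AP20187 2 (median 0.00) and all 55 in AP20187 3 (median 1.63). In AP20187 1, 49 of the 55 genes lay above all 3 vehicle libraries, and in AP20187 3, 54 did. In AP20187 2, 11 lay above, 26 within and 18 below the vehicle range. Such counts per library were not made over all listed genes, so they are given without a background share. AP20187 2 had the highest Wnt1 and Fgfr1 RNA of all libraries, and its luminal markers, at 6517 CPM, lay above every vehicle library but below the other AP20187 libraries (7965 and 8748 CPM). Its markers of basal epithelium (2937 CPM), fibroblasts (1421 CPM), endothelium (236 CPM), adipocytes (101 CPM) and Schwann cells (133 CPM) were the highest of the AP20187 libraries and below every vehicle library. Their part in its lower histone RNA was not tested.

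**Figure D3:**
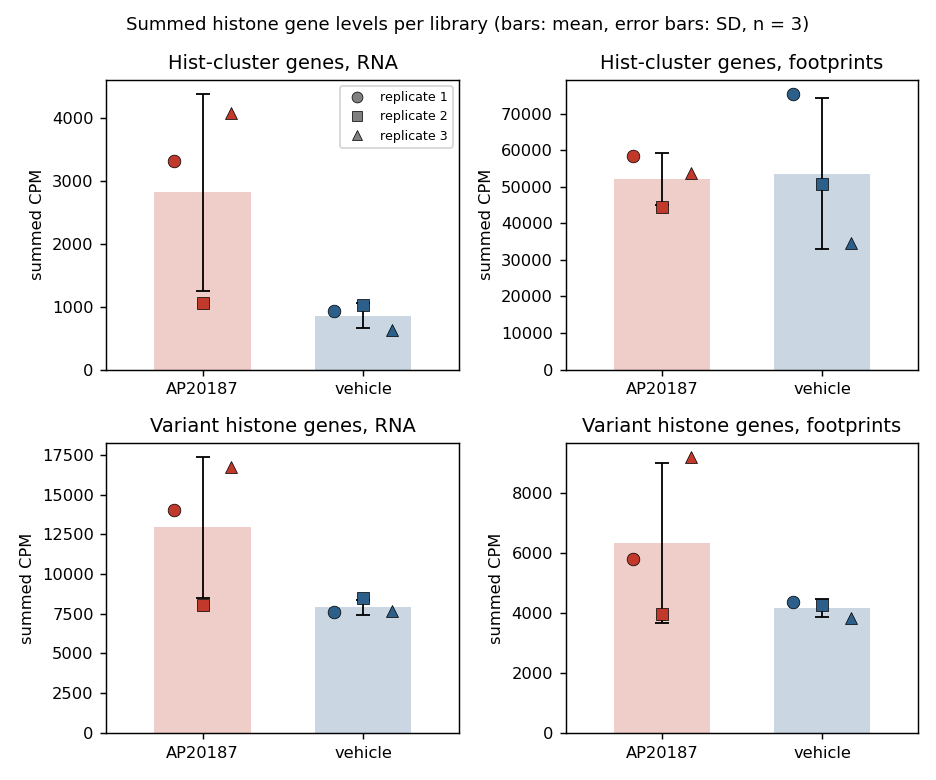
Summed CPM of the 55 Hist-cluster genes (top) and of the 10 variants (bottom) in RNA (left) and footprints (right), with AP20187 in red left of vehicle in blue; points are libraries with the replicate number as symbol, bars the means and error bars the SD of 3 libraries, on axes that start at 0. In RNA, AP20187 1 and 3 stand at 3315 and 4071 CPM, AP20187 2 at 1058 CPM and the vehicle libraries at 629 to 1017 CPM, while in footprints the groups overlap.

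The calls depended on single libraries. With RNA AP20187 1 left out, 1 histone gene was called higher (H2afj). Leaving out RNA AP20187 2 gave 49 higher and 1 lower, and leaving out RNA AP20187 3 gave 6 higher. Of the vehicle libraries, removal of the first or of the last gave 0 higher, with 36 and 26 at an unadjusted p under 0.05, and removal of vehicle 2 gave 7. The calls over all 7314 genes tested moved as well, from 906 higher with all libraries. Without AP20187 1, 2 or 3 they were 388, 1048 and 838, and without vehicle 1, 2 or 3 they were 307, 1043 and 247. H1f0, H1fx, H2afj, Hist1h1c and Hist1h1d were among the histone genes called both without AP20187 3 and without vehicle 2. Of the 21 genes called, 11 had all 3 AP20187 libraries above all 3 vehicle libraries, 7 Hist-cluster genes and all 4 variants. Over all 65 genes such an order was seen for 15 (23.1%), where 21.9% of all genes tested had it, and the opposite order for 2, H2afv and H3f3a, where 23.1% of all genes had it. Split by class, the first order was seen for 10 of the 55 Hist-cluster genes (18.2%), a share below the 21.9% of all genes tested, and for 5 of the 10 variants. The opposite order was seen for 0 of the 55 Hist-cluster genes.

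**Figure D4:**
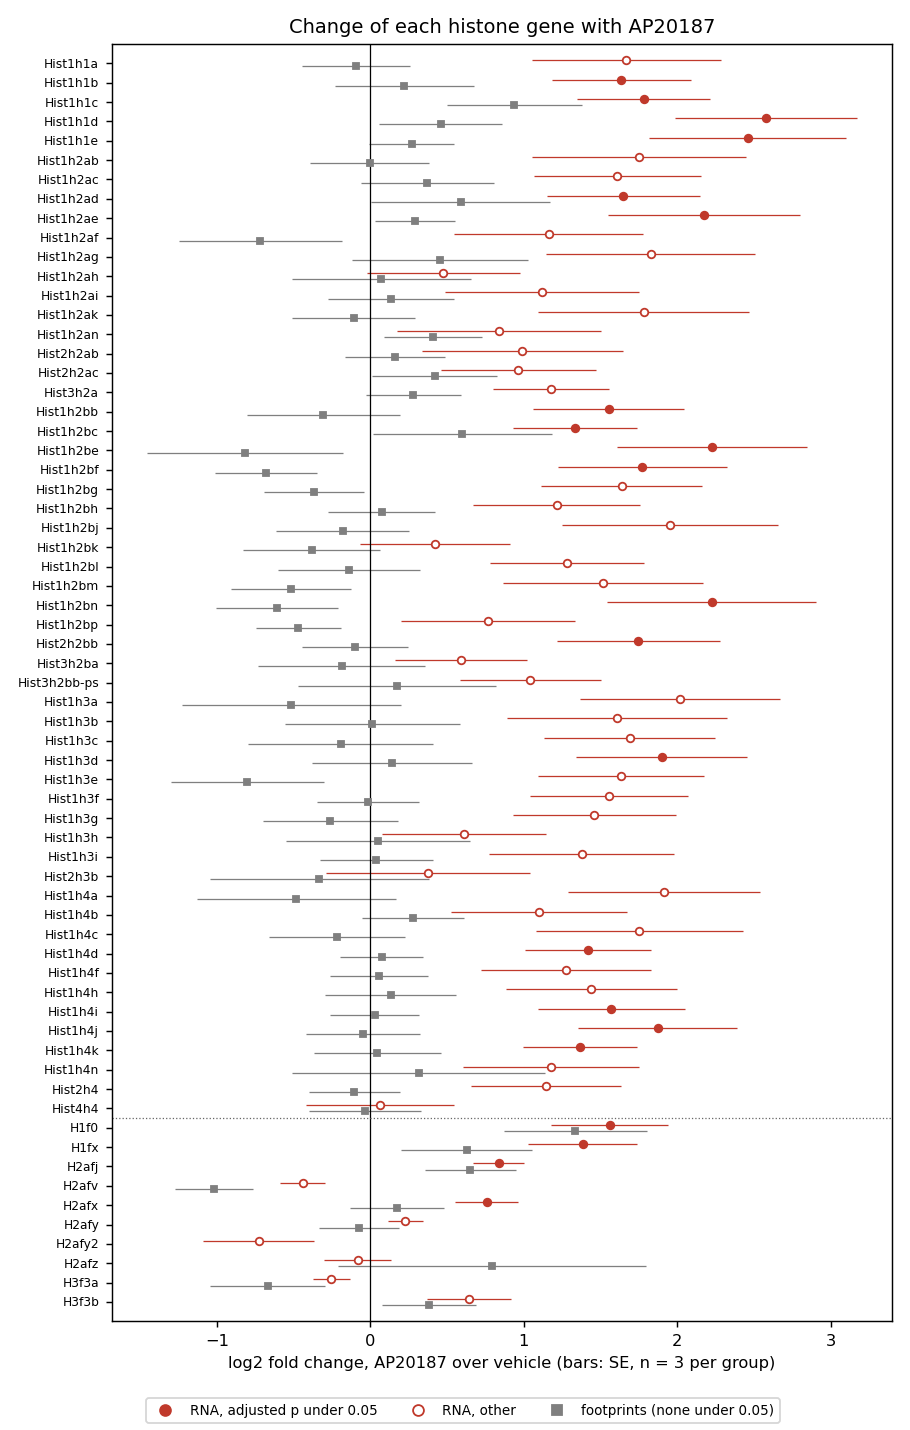
Log2 fold change of each histone gene, AP20187 over vehicle, in RNA (red circles, filled where the edgeR adjusted p was under 0.05) and in footprints (grey squares, none under 0.05), with SE bars from 3 libraries per group; variants stand below the dotted line. RNA values lie right of 0 for all 55 Hist-cluster genes, whereas footprint values scatter around 0, with a median of 0.01.

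Of the 5 linker histone H1 genes in the Hist clusters, 4 rose. Promoters of the H1 genes with the largest RNA rises, Hist1h1d and Hist1h1e, are shown with that of the variant linker histone gene H1f0, which rose too. They are RefSeq sequences on GRCm38.p6 from 250 bases before to 50 after the annotated start, 5′ to 3′ on the gene's strand. The capitals mark CCAAT, the TATA box letters TATAAA, and the letters AAACACA, an element known from H1 promoters, or their reverse complements.
Hist1h1d (chr13:23554782-23555081, plus strand): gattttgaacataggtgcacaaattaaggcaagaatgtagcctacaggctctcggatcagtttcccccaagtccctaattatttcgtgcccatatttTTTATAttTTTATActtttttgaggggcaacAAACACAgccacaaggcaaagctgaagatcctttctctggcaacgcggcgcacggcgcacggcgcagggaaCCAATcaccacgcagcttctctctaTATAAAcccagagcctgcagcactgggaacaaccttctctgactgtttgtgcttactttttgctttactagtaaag
Hist1h1e (chr13:23622509-23622808, minus strand): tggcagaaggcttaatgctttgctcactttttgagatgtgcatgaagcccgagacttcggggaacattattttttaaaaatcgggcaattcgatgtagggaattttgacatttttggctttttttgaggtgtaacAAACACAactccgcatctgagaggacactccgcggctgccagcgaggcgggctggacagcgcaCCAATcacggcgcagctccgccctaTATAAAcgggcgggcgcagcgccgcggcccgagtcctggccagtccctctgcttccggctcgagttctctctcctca
H1f0 (chr15:79027962-79028261, plus strand): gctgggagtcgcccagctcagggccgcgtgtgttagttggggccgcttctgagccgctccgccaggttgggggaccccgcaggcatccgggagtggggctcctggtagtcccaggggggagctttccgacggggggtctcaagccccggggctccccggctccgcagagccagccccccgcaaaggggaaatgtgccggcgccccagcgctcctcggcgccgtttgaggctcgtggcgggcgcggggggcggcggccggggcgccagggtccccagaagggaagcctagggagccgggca

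Both strands of every promoter were searched for these letters, and a promoter with TATAAA on both strands, which can overlap, was counted once. CCAAT was present in 84% of the 50 Hist-cluster genes that matched a promoter, in 66.7% of the 9 matched variants and in 37.4% of all 32851 promoters. TATAAA was present in 62%, 11.1% and 13.6% in the same order. AAACACA was present in 4 of the 5 Hist-cluster H1 genes, in 12% of Hist-cluster genes, in 11.1% of variants and in 7.18% of all promoters. The printed H1f0 window holds none of the 3 motifs; it lies upstream of the start of the GENCODE model, and for Hist1h1d that model starts upstream of the RefSeq one. A match of letters is a description and shows no binding.

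Hist1h1d (chromosome 13, 23553262 to 23560686, plus strand) had RNA of 173, 34.6 and 189.8 CPM in the AP20187 libraries, against 24.3, 29.8 and 12.5 CPM in the vehicle libraries. The groups did not overlap, though AP20187 2 was close to vehicle 2, and the log2 fold change was 2.58 ± 0.59 (SE, edgeR adjusted p = 0.0188), the largest of the histone genes. Hist1h1e, a neighbour in the same cluster (chromosome 13, 23620629 to 23622558, minus strand), had 77.8, 11.7 and 96.6 CPM in the AP20187 libraries, against 14.1, 11.2 and 8.52 CPM in the vehicle libraries. AP20187 2 lay inside the vehicle range there, and the change was 2.46 ± 0.64 (SE, edgeR adjusted p = 0.0272). Hist1h1c stood at 2015, 669 and 2348 CPM in the AP20187 libraries, against 499, 616 and 347 CPM in the vehicle libraries. The groups did not overlap, and it rose by 1.78 ± 0.44 (SE, edgeR adjusted p = 0.0225). Hist1h1b had 135, 41.8 and 156 CPM in the AP20187 libraries, against 40.5, 42.9 and 23.8 CPM in the vehicle libraries. AP20187 2 again lay inside the vehicle range, and the change was 1.64 ± 0.45 (SE, edgeR adjusted p = 0.0323). Hist1h1a, the remaining H1 gene, changed by 1.67 ± 0.61 (SE, edgeR adjusted p = 0.0764) and did not pass. Of these genes Hist1h1a and Hist1h1b have sequences nearly all their own, with 99.5% and 95.2% unique windows.

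Of the 15 H2B genes 6 rose. Hist1h2bc, the H2B gene with the most RNA per length, stood at 281, 120.2 and 436 CPM in the AP20187 libraries, against 125, 124 and 82.7 CPM in the vehicle libraries, with AP20187 2 inside the vehicle range, and changed by 1.34 ± 0.41 (SE, edgeR adjusted p = 0.0439). For Hist1h2be, RNA stood at 55.5, 10.1 and 86.1 CPM in the AP20187 libraries, against 11.7, 10.3 and 10.3 CPM in the vehicle libraries, a change of 2.23 ± 0.62 (SE, edgeR adjusted p = 0.0333). Its annotated transcript overlaps that of Hist1h1e on the same strand, so reads of the shared stretch may be assigned to either. Hist2h2bb, from the cluster on chromosome 3, had 49.7, 13.5 and 71.6 CPM in the AP20187 libraries, against 18.6, 10.8 and 10.7 CPM in the vehicle libraries and changed by 1.75 ± 0.53 (SE, edgeR adjusted p = 0.0434). Its coding sequence has 0% unique windows, and it overlaps another annotated gene on the same strand. Hist1h2bn, an H2B gene at low RNA, had 8.95, 1.47 and 10.7 CPM in the AP20187 libraries, against 2.29, 1.23 and 0.977 CPM in the vehicle libraries, a change of 2.22 ± 0.68 (SE, edgeR adjusted p = 0.0443). In each of these 4 genes AP20187 1 and 3 were high and AP20187 2 was not. The other 2 genes had all AP20187 libraries on top. Hist1h2bb had 1.81, 1.12 and 2.57 CPM in the AP20187 libraries, against 0.563, 0.946 and 0.353 CPM in the vehicle libraries and changed by 1.55 ± 0.49 (SE, edgeR adjusted p = 0.0488). Hist1h2bf had 1.46, 0.785 and 1.95 CPM in the AP20187 libraries, against 0.514, 0.523 and 0.166 CPM in the vehicle libraries and changed by 1.77 ± 0.55 (SE, edgeR adjusted p = 0.0464).

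Core histones H2A, H3 and H4 had 7 calls among 35 genes. Hist1h2ad, an H2A gene with no unique window, stood at 9.64, 2.48 and 9.75 CPM in the AP20187 libraries, against 2.47, 2.75 and 1.75 CPM in the vehicle libraries, a change of 1.65 ± 0.50 (SE, edgeR adjusted p = 0.0430). The H2A gene Hist1h2ae had 4.00, 1.07 and 6.39 CPM in the AP20187 libraries, against 0.993, 1.02 and 0.499 CPM in the vehicle libraries. All AP20187 libraries lay above vehicle, narrowly for AP20187 2, and it changed by 2.18 ± 0.63 (SE, edgeR adjusted p = 0.0373). Among H3 genes only Hist1h3d passed, at 20.5, 4.64 and 26.8 CPM in the AP20187 libraries, against 5.77, 4.69 and 3.45 CPM in the vehicle libraries and with a change of 1.90 ± 0.56 (SE, edgeR adjusted p = 0.0393). Hist1h4i had the most RNA per length among H4 genes (107 CPM per kb of transcript model). It stood at 136, 35.3 and 178 CPM in the AP20187 libraries, against 41.0, 37.7 and 39.1 CPM in the vehicle libraries and changed by 1.57 ± 0.48 (SE, edgeR adjusted p = 0.0440). AP20187 2 lay below all vehicle libraries for this gene. Hist1h4j had 5.26, 1.39 and 5.29 CPM in the AP20187 libraries, against 1.39, 1.02 and 0.842 CPM in the vehicle libraries, a change of 1.87 ± 0.52 (SE, edgeR adjusted p = 0.0337). Hist1h4k stood at 11.6, 4.84 and 10.1 CPM in the AP20187 libraries, against 4.51, 2.87 and 2.85 CPM in the vehicle libraries, without overlap, and changed by 1.37 ± 0.37 (SE, edgeR adjusted p = 0.0311). RNA of Hist1h4d, given above, was without overlap as well and changed by 1.42 ± 0.41 (SE, edgeR adjusted p = 0.0380). The H4 gene with the most unique sequence of its type, Hist4h4, changed least of the Hist-cluster genes, by 0.06 ± 0.48 (SE, edgeR adjusted p = 0.936).

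All 4 variants that rose did so without overlap between the groups. H1f0 RNA (chromosome 15, 79028450 to 79030504, plus strand) stood at 2043, 941 and 2484 CPM in the AP20187 libraries, against 553, 866 and 435 CPM in the vehicle libraries and rose by 1.56 ± 0.38 (SE, edgeR adjusted p = 0.0227). H1fx RNA stood at 29.2, 17.7 and 32.3 CPM in the AP20187 libraries, against 9.93, 14.5 and 5.90 CPM in the vehicle libraries and rose by 1.38 ± 0.35 (SE, edgeR adjusted p = 0.0256). H2afj, an H2A variant gene, had 52.1, 50.3 and 55.6 CPM in the AP20187 libraries, against 26.9, 35.9 and 25.6 CPM in the vehicle libraries. Its AP20187 libraries lay close together, and it rose by 0.84 ± 0.17 (SE, edgeR adjusted p = 0.0124), the lowest adjusted p of the histone genes. H2afx rose by 0.76 ± 0.21 (SE, edgeR adjusted p = 0.0314), with its RNA values given above. The H3 variant genes did not pass: H3f3b changed by 0.65 ± 0.27 (SE, edgeR adjusted p = 0.113) and H3f3a by -0.26 ± 0.12 (SE, edgeR adjusted p = 0.147). For H3f3b the AP20187 2 value lay at the level of vehicle, and the H3f3b adjusted p was 0.0294 with DESeq2 and 0.0272 with edgeR without RNA AP20187 2. H2afv RNA stood at 31.0, 37.4 and 37.4 CPM in the AP20187 libraries, against 48.5, 51.7 and 43.4 CPM in the vehicle libraries, with every AP20187 library below every vehicle library, and changed by -0.44 ± 0.15 (SE, edgeR adjusted p = 0.0581). RNA of H2afy, H2afz and H2afy2 changed by 0.23, -0.08 and -0.73 on the log2 scale (edgeR adjusted p = 0.164, 0.801 and 0.167).

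**Figure D5:**
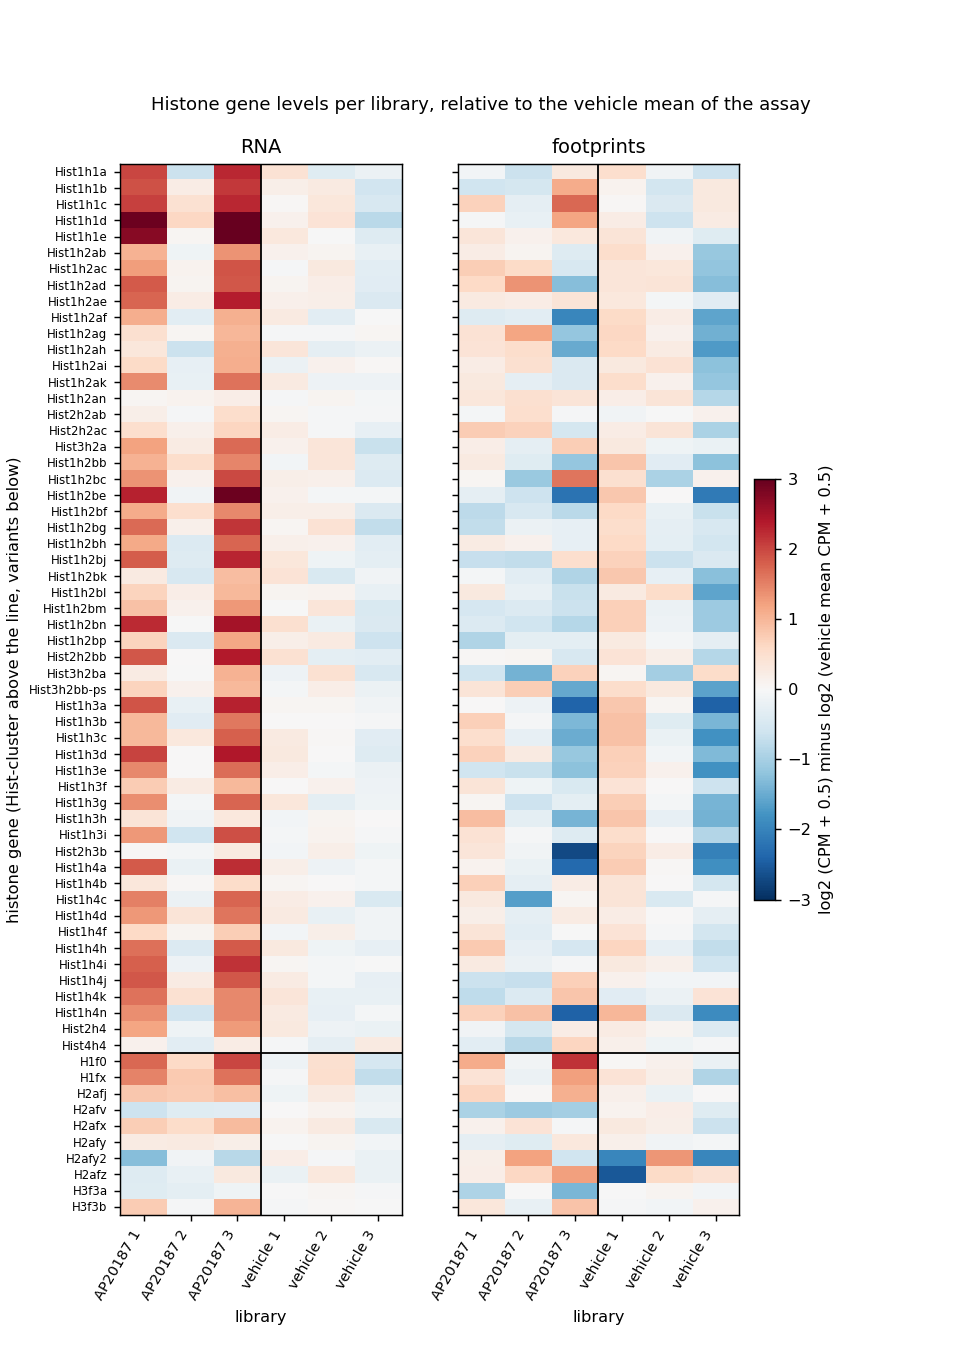
Level of each histone gene in each library relative to the vehicle mean of the assay, as the difference of log2 (CPM + 0.5), with RNA left and footprints right, the AP20187 libraries left of the vehicle libraries in each panel, and variants below the horizontal line; red is higher and blue lower than the vehicle mean. AP20187 1 and 3 are red in RNA for nearly all Hist-cluster genes and AP20187 2 is pale, while in footprints AP20187 3 and vehicle 3 are blue for many H2A and H3 genes.

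No such change was called in footprints. Of the 64 genes tested 0 were called higher and 0 lower with edgeR, where 0.937% of all 7041 genes tested were called higher and 1.6% lower; H2afy2 had too few counts to be tested. At an unadjusted p under 0.05, 1 gene was higher and 1 was lower, against 549 higher and 611 lower of all 7041 genes tested. DESeq2 called 1 gene higher (H1f0) and 1 lower (H2afv), limma voom 0 and 0, and edgeR without footprint AP20187 2 called 1 higher (H1f0). Over all genes tested, DESeq2 called 213 higher and 315 lower, and limma voom 76 and 155. Without footprint AP20187 2, edgeR called 63 and 123. Same-numbered footprint libraries deviated together, though correlations of 3 libraries cannot decide whether they are paired. The fit with the replicate number as a block is therefore given as well. It called 0 higher and 1 lower, H2afv (edgeR adjusted p = 0.00861), with the same direction as in the fit without the block. Of all 7041 genes tested, the block fit called 353 higher and 362 lower. The median log2 fold change was 0.01 for Hist-cluster genes and 0.03 for all genes tested. The Hist-cluster median depended on single libraries: it was 0.31 without footprint vehicle 1 and -0.25 without footprint vehicle 3. For all genes tested the median was 0.03 and 0.04 in these 2 fits. No histone gene had all AP20187 libraries above all vehicle libraries, where 11.4% of all genes had, and 2 had the opposite order, H2afv and Hist1h2bp, where 11.8% of all genes had.

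Summed over the Hist-cluster genes, footprints stood at 58298, 44378 and 53840.0 CPM in the AP20187 libraries, against 75500.5, 50734 and 34485 CPM in the vehicle libraries, and both the highest and the lowest library were vehicle. The means were 52172 ± 7108 CPM with AP20187 and 53573 ± 20655 CPM with vehicle (SD, n = 3 each). The core types behaved differently across libraries. Summed footprints of the H3 genes stood at 9945, 7441 and 4040.2 CPM in the AP20187 libraries, against 14529, 9134 and 3126 CPM in the vehicle libraries, low in the libraries numbered 3 of both treatments. Those of the H1 genes stood at 9789, 6829 and 17931 CPM in the AP20187 libraries, against 10102, 6642 and 8403 CPM in the vehicle libraries, highest in AP20187 3. Summed footprints of the variants stood at 5819.9, 3972 and 9217 CPM in the AP20187 libraries, against 4383, 4274 and 3821 CPM in the vehicle libraries, and here too AP20187 3 was highest.

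Among single genes, H1f0 had footprints of 2227, 965 and 4619 CPM in the AP20187 libraries, against 1054, 1136 and 905 CPM in the vehicle libraries. The groups overlapped through AP20187 2, and the change was 1.34 ± 0.46 (SE, edgeR adjusted p = 0.171). H2afv had 84.4, 77.3 and 81.5 CPM in the AP20187 libraries, against 178, 189 and 127 CPM in the vehicle libraries. Its AP20187 libraries were all below vehicle, and the change was -1.02 ± 0.25 (SE, edgeR adjusted p = 0.0632). H2afv and H1f0 are the histone genes whose coding windows are all unique. Hist1h1d, with the largest RNA rise, had footprints of 1751, 1545 and 4107 CPM in the AP20187 libraries, against 2097, 1175 and 2116 CPM in the vehicle libraries and changed by 0.46 ± 0.40 (SE, edgeR adjusted p = 0.645). Hist1h1e had 1594, 1337 and 1522 CPM in the AP20187 libraries, against 1599, 1141 and 953 CPM in the vehicle libraries and changed by 0.27 ± 0.28 (SE, edgeR adjusted p = 0.709). Their AP20187 and vehicle libraries overlapped.

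The change in translational efficiency, which is the change in footprints over RNA with AP20187, was negative for all 55 Hist-cluster genes, but none passed the test. Its RNA term counts only transcripts that poly(A) selection recovers. Of 65 genes 0 were called higher and 0 lower with edgeR, as for 0% of all 7315 genes tested in either direction. At an unadjusted p under 0.05, 0 histone genes were higher and 29 lower, against 194 higher and 156 lower of all 7315 genes tested, of which 4216 were negative. DESeq2 called 1 lower (Hist1h2bf, DESeq2 adjusted p = 0.0373), limma voom 0, and the fits with the replicate number or the pellet as a block 0. Of all 7315 genes tested, DESeq2 called 8 higher and 2 lower. The median log2 change was -1.45 for Hist-cluster genes, -0.33 for variants and -0.08 for all genes tested. The lowest adjusted p of the histone genes was that of Hist1h2bf, -2.50 ± 0.59 (SE, edgeR adjusted p = 0.468).

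Per pellet, the ratio of summed footprints to summed RNA of the Hist-cluster genes, after scaling over all 12 libraries, was 18.8, 45.1 and 14.2 in the AP20187 pellets, against 90.3, 54.9 and 61.4 in the vehicle pellets. All 3 AP20187 pellets lay below all vehicle pellets, AP20187 2 being the closest. The variants' ratio was 0.443, 0.529 and 0.591 in the AP20187 pellets, against 0.636, 0.556 and 0.558 in the vehicle pellets. There the groups overlapped. In each of the 6 pellets at least 54 of the 55 Hist-cluster genes had more footprint CPM than RNA CPM, against 6 of the 10 variants.

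Genes that make and process histone mRNA were listed in 25 of 30 cases, Slbp not being among those analysed here, and in RNA 0 rose and 5 fell with edgeR, where 12.4% of all genes tested were called higher and 13.9% lower. At an unadjusted p under 0.05, 1 was higher and 5 were lower, against 1487 and 1503 of all 7314 genes tested. DESeq2 called 1 of the list higher. Npat and Casp8ap2, which activate histone gene transcription, changed by -0.87 ± 0.18 (SE, edgeR adjusted p = 0.0144) and -0.72 ± 0.15 (SE, edgeR adjusted p = 0.0146). Zcchc11 and Zcchc6, uridyltransferases that tag RNA for decay, changed by -1.08 ± 0.18 (SE, edgeR adjusted p = 0.00816) and -0.67 ± 0.20 (SE, edgeR adjusted p = 0.0392). The fifth was Eri1, an exonuclease that trims histone mRNA ends, at -0.43 ± 0.14 (SE, edgeR adjusted p = 0.0493). The list's median log2 fold change was 0.01, as for all genes tested. Without a single library the number that fell ranged from 1 to 4, being 2 when vehicle 1 was removed, 1 for vehicle 3 and 3 for AP20187 3.

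Of 36 histone chaperones and exchange factors 30 were listed, and 3 rose and 2 fell, shares below the 12.4% and 13.9% of all genes tested. Ipo4, an importin that carries histones to the nucleus, changed by 0.57 ± 0.14 (SE, edgeR adjusted p = 0.0211), Ruvbl2, an ATPase of exchange complexes, by 0.57 ± 0.14 (SE, edgeR adjusted p = 0.0254), and Hira, the chaperone subunit that deposits the replication-independent H3, by 0.47 ± 0.13 (SE, edgeR adjusted p = 0.0302). Ubn1, a partner of Hira, changed by -0.77 ± 0.17 (SE, edgeR adjusted p = 0.0149), and Nasp, an H1 and H3-H4 chaperone, by -0.82 ± 0.19 (SE, edgeR adjusted p = 0.0180). With RNA AP20187 1 left out, 0 were called higher and 1 lower. With the first or the last vehicle library left out, 0 were called in either direction. Removal of vehicle 2 gave 5 lower, and removal of AP20187 3 gave 3 lower.

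Of 50 genes of S phase and DNA replication 36 were listed, and 5 rose and 1 fell, with a median log2 fold change of 0.21. The count that rose is close to the 12.4% of all genes tested, and the count that fell is below the 13.9%. The flap endonuclease gene Fen1 changed by 1.43 ± 0.32 (SE, edgeR adjusted p = 0.0167), the ribonucleotide reductase subunit Rrm2 by 1.27 ± 0.31 (SE, edgeR adjusted p = 0.0224), the polymerase subunit Pold2 by 0.90 ± 0.21 (SE, edgeR adjusted p = 0.0204) and the maintenance methyltransferase Dnmt1 by 0.76 ± 0.18 (SE, edgeR adjusted p = 0.0195). Of the helicase subunits, Mcm2 changed by 0.75 ± 0.22 (SE, edgeR adjusted p = 0.0421) and Mcm4 by -0.59 ± 0.15 (SE, edgeR adjusted p = 0.0254). The summed RNA of the 36 genes was 2397, 2907 and 2973 CPM in the AP20187 libraries, against 2235, 2685 and 2029 CPM in the vehicle libraries. AP20187 2, at vehicle level for the Hist-cluster genes, was thus close to AP20187 3 in this sum. Removal of the first or the last vehicle library left 1 that rose and 0 that fell. Removal of vehicle 2 left 9 that rose, and removal of AP20187 1 left 2 that rose and 0 that fell. Removal of AP20187 2 or of AP20187 3 gave 2 that fell. Of the 3 listed G2/M markers (Mki67, Top2a and Cdk1), the summed RNA ranged from 623 to 709 CPM with AP20187 and from 453 to 769.9 CPM with vehicle. In footprints 0 members of these 3 lists passed in either direction with edgeR. At an unadjusted p under 0.05, 3 were higher and 2 lower over the 3 lists, against 549 and 611 of all 7041 genes tested. DESeq2 and limma voom each called 1 S-phase gene higher, and the replicate block called 1 S-phase gene and 1 chaperone higher and 1 chaperone lower.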

How the data were processed

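RNA and ribosome footprints were measured in 12 libraries, 3 for each of 4 groups named by the sample titles. The authors deposited raw read counts for each of 7318 listed genes, and the values used here are those counts. Tools named in the submitters' processing notes are STAR, Bowtie2, HTSeq, cutadapt and bcl2fastq 1.8.3, with the build mm10. How strand and multi-mapping reads were handled is not given in the sources used here. Members and lists of genes were chosen with earlier results of these data known.

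The 4 comparisons were fitted with edgeR 4.0.16 (quasi-likelihood test, TMM scaling, filterByExpr, Benjamini-Hochberg adjustment over all genes tested, threshold 0.05) in R 4.3.3: RNA and footprints separately over 6 libraries each, and the change in translational efficiency and footprints over RNA over all 12. The change in translational efficiency is the interaction of treatment and assay. Error terms of log2 values are SE from the fit. Summed levels are given with SD. A limit of 3 counts covers counting error only. Named genes are the members called, H3f3a and H3f3b, and the 3 members of each class with the highest mean CPM, and Hist4h4, Hist1h1a, H2afv, Hist2h4, Hist1h2bp and other genes singled out were chosen after their values were seen.

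Alternatives were DESeq2 1.42.0, limma 3.58.1 (voom), other scalings, no filter, each library left out, and the replicate number or pellet as a block. The scripts were tested on simulated data. Deviations of same-numbered AP20187 and vehicle libraries from their group means correlated at 0.199, 0.269 and 0.382 in footprints, which meets the rule for pairing that every correlation exceeds 0.1. Between same-numbered footprint and RNA libraries they correlated at 0.460, 0.530 and 0.377 with AP20187 and at 0.0480, 0.103 and 0.344 with vehicle. The vehicle pellets thus did not meet the rule, and footprint vehicle 1 correlated more with RNA vehicle 2 (0.159). Gene models and stem-loops come from GENCODE vM21, promoters from RefSeq, of which 59 of 65 genes matched one.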

Additional observations from a re-analysis of the deposited data

How the results depend on the processing

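In RNA, the 21 histone genes called higher became 34 with DESeq2 and 10 with limma voom, and each of these also called 1 lower against 0. Of all 7314 genes tested, DESeq2 called 1220 higher and 1269 lower, and limma voom 920 and 1074, where edgeR called 906 and 1013. DESeq2 called 1 gene of histone mRNA processing higher against 0. In footprints, DESeq2 called 1 histone gene higher and 1 lower against 0 and 0, and DESeq2 and limma voom each called 1 S-phase gene higher against 0. Of all 7041 genes tested, DESeq2 called 213 higher and 315 lower, and limma voom 76 and 155. For translational efficiency, DESeq2 called 1 histone gene lower against 0, and 8 higher and 2 lower of all 7315 genes tested. The mean log2 footprint-over-RNA difference of the summed Hist-cluster genes was 5.29, and 8.06 when each library was represented by the median of its genes' log2 (CPM + 0.5) in place of the sum. For the variants the sign turned with this choice: footprints changed by 0.52 with sums and -0.11 with library medians, and footprints over RNA stood at -0.87 and 0.32. These differences between library medians are not the medians of fitted values over the variants, which were 0.39 and 0.68.

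With the replicate number as a block, RNA calls of histone genes fell to 2 higher and those of chaperones to 1 higher. Of all 7314 genes tested, 620 were called higher in RNA with the block. In RNA the correlations of same-numbered libraries were 0.216, -0.0475 and -0.0439, so the rule for pairing was not met there. Such correlations of 3 libraries cannot decide whether the RNA libraries, or the footprint libraries, are paired. In footprints the block called 0 histone genes higher and 1 lower, 1 chaperone higher and 1 lower, and 1 S-phase gene higher. Of all 7041 genes tested, the block called 353 higher and 362 lower there. It changed no call of histone genes for translational efficiency.

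With each library left out in turn, histone genes called in RNA ranged from 0 to 49 higher and 0 to 1 lower, chaperones from 0 to 3 higher and 0 to 5 lower, S-phase genes from 1 to 9 higher and 0 to 2 lower, and processing genes from 1 to 4 lower. Over all genes tested, the higher calls in RNA ranged from 247 to 1048. In footprints 0 to 1 histone genes were called higher. The cause of these changes was not tested. With 3 libraries per group, precision is limited.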
